A study of Sus scrofa with 8 samples.

Results

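PIK3CD, PIK3CG, PLCG2, RPS6KB1, EIF4E, FOXO3, PPP2R5A, CCND3 and MDM2 are nodes of PI3K signaling, of its S6 kinase and translation branch and of cell cycle control, and their transcripts were followed in the lung of pigs of a highland and a lowland breed. They are 9 of 3828 genes that had a symbol here and a probe above background. Non-control probes that carried 1 of the 9 symbols were taken where some array had them well above background, which gave 19 of 34406 such probes, and all 19 passed on all 8 arrays. CCND3, FOXO3, PIK3CG, PPP2R5A and RPS6KB1 had 3 probes each, and PIK3CD, PLCG2, EIF4E and MDM2 had 1 each. The name of 4 probes rested on a RefSeq accession of the target (PIK3CG, PPP2R5A, CCND3 and MDM2). A further 2 probes (FOXO3 and CCND3) were named only by the study's list of regulators, of which a part ordered by a score from these arrays was used. The other 13 probes were named by tables that the study had limited to, or ranked on, breed and interaction results of these same arrays. Those 13 had to differ between groups, so they are described by their values without a test, and tests are given for the 6 other probes. Of these 6, the FOXO3 and CCND3 probes from the regulator list were not chosen independently of these arrays. The 9 genes themselves were chosen with earlier results of these data known. The tests of all 6 probes are to be read with these limits.

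PI3K phosphorylates a membrane lipid that recruits kinases such as AKT. Downstream, the S6 kinase encoded by RPS6KB1 and the cap-binding factor EIF4E drive protein synthesis, AKT keeps the transcription factor FOXO3 out of the nucleus, and cyclin D3 (CCND3) moves cells into S phase. PIK3CD, PIK3CG and PLCG2 are used most by leukocytes, which are abundant in lung.

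Each group held 2 female pigs of 6 months, with 1 animal per array and no pooling. TH were Tibetan pigs kept at 3500 m, and TL were Tibetan pigs moved to 40 m at 1 month of age. DL were Duroc pigs kept at 40 m, and DH were Duroc pigs moved to 3500 m at 1 month of age. Moved and native pigs therefore differ in the move as well as in altitude, and no pigs were moved within an altitude. TH and DL arrays shared the first slide and TL and DH arrays shared the second. The breed effect (Tibetan minus Duroc) and the altitude effect (high minus low) are balanced over the slides. The interaction, TH minus TL minus DH plus DL, equals the contrast between slides. It also equals the contrast of native and moved pigs, and interaction, slide and move cannot be told apart. The differences TH minus DL and TL minus DH lie within a slide and set breeds apart that also differ in altitude.

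Values are the deposited log2 values, which have the same median of 7.40 on every array. Between 26466 and 31723 probes were well above background per array, with the highest numbers on the TL arrays (31723 and 31641). The median raw spot signal was also higher there, at 324 and 333.5 against 207.5 to 230 on the other arrays. Over the tested probes, Pearson's r was 0.981 to 0.994 within groups, 0.961 to 0.967 between TH, DH and DL, and 0.918 to 0.941 between TL and the other groups. Across the 19 probes the SD between the 2 arrays of a group was at most 0.09, with a median of 0.02. Over all tested probes the median was 0.04 and the highest 8.91. Most of the 19 were named from tables chosen on these arrays, which can favor a small spread. In whole lung, fewer cells of a type and less RNA per cell cannot be told apart, and levels of different probes are not comparable.

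**Figure D1:**
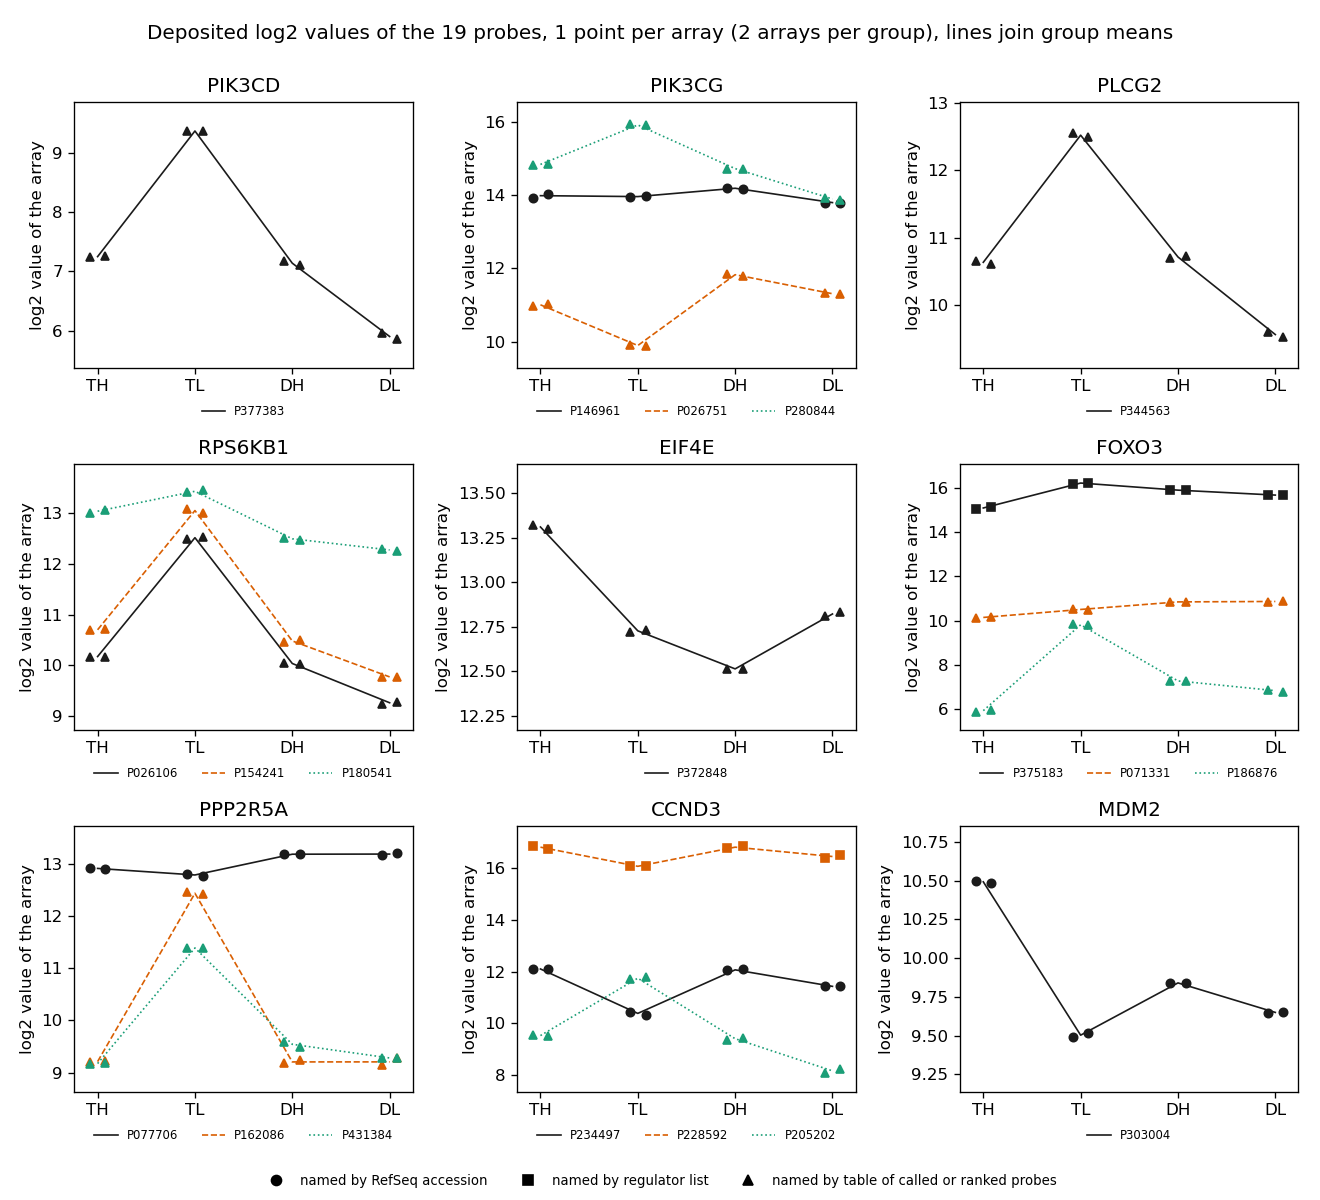
Log2 value (y axis) of each probe on each of the 8 arrays, by group (x axis), in 1 panel per gene. Points are arrays, lines join the means of the 2 arrays of a group and have no meaning between groups, and heights of different probes cannot be compared. Probes of PIK3CG, FOXO3, PPP2R5A and CCND3 take different courses over the groups, as in CCND3, where TL is lowest for P234497 and highest for P205202.

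PIK3CD encodes the leukocyte catalytic subunit p110 delta. Its probe A_72_P377383 read 7.24 and 7.26 in TH, 9.38 and 9.37 in TL, 7.17 and 7.11 in DH, and 5.95 and 5.85 in DL. TL lay highest and DL lowest, with no overlap between any groups. TL was 4.36 times TH and 11.1 times DL in mean level. All values outside TL lay below the array median of 7.40, so these ratios depend on the handling of background. TL minus DL was 3.48 in log2 units and ran from 1.80 to 3.84 over 4 other backgrounds or scalings. It was lowest with local background and an offset of 50.

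PIK3CG encodes p110 gamma, which works downstream of G protein-coupled receptors. The RefSeq probe A_72_P146961 read 13.92 and 14.03 in TH, 13.95 and 13.96 in TL, 14.19 and 14.17 in DH, and 13.79 and 13.79 in DL. The TL values fell inside the range of TH, DH was highest and DL lowest, and the group means spanned 0.39 in all. None of the breed, altitude and interaction estimates of this probe passed the threshold of an FDR below 0.0001 that the study's methods set. The interaction was -0.37 ± 0.06 (SE, adjusted p = 0.00295) and became 0.21 under a scaling of the processed signals in which each array was set to its 75th percentile. Under that scaling limma called the altitude effect, 0.56 (adjusted p = 6.31e-05), and TL minus DH, -0.89 (adjusted p = 2.95e-05). TL minus DL turned from 0.16 to -0.44 there, which made TL the lowest group, so the place of TL depended on the scaling.

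The remaining PIK3CG probes, both named from the ranked tables, went opposite ways. A_72_P280844 read 14.82 and 14.84 in TH, 15.92 and 15.89 in TL, 14.72 and 14.72 in DH, and 13.90 and 13.87 in DL, so that TL was highest and DL lowest. A_72_P026751 read 10.98 and 11.03 in TH, 9.90 and 9.89 in TL, 11.86 and 11.80 in DH, and 11.32 and 11.30 in DL, so that DH was highest and TL lowest. Over the 8 arrays r was -0.77 between these probes, 0.35 between A_72_P026751 and the RefSeq probe, and 0.32 between A_72_P280844 and the RefSeq probe. These and the other correlations between probes describe 8 arrays in 4 groups and carry no p.

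PLCG2, a phospholipase that acts after B cell and Fc receptors, had the probe A_72_P344563. It read 10.66 and 10.62 in TH, 12.55 and 12.48 in TL, 10.70 and 10.73 in DH, and 9.61 and 9.53 in DL. The order was TL, DH, TH and DL without overlap, and TL was 7.71 times DL.

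RPS6KB1 encodes the S6 kinase p70. Probes A_72_P026106 and A_72_P154241 were designed on the same target, so they are not separate evidence. The first read 10.17 and 10.18 in TH, 12.50 and 12.53 in TL, 10.05 and 10.03 in DH, and 9.25 and 9.29 in DL. The second read 10.70 and 10.71 in TH, 13.09 and 13.01 in TL, 10.47 and 10.50 in DH, and 9.77 and 9.78 in DL. Both placed TL highest, at 9.50 and 9.67 times DL, and correlated at r = 0.999.

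RPS6KB1 probe A_72_P180541, on another target, read 13.01 and 13.06 in TH, 13.41 and 13.45 in TL, 12.52 and 12.47 in DH, and 12.30 and 12.25 in DL. It kept the order TL, TH, DH and DL with a smaller range of group means, 1.15 against 3.25 and 3.27. Its difference TH minus TL of -0.39 turned to 0.15 under the 75th percentile scaling.

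EIF4E, the cap-binding factor of translation initiation, was measured by A_72_P372848. TH arrays read 13.32 and 13.30, TL arrays 12.72 and 12.73, DH arrays 12.51 and 12.51, and DL arrays 12.81 and 12.83. TH stood above the other groups, by 0.62 over their mean, and DH was lowest. TL minus DH was 0.21 and became -0.21 under the 75th percentile scaling.

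FOXO3 is a transcription factor of stress resistance and cell death that AKT inhibits. A_72_P375183, named by the regulator list, read 15.03 and 15.13 in TH, 16.18 and 16.23 in TL, 15.90 and 15.87 in DH, and 15.67 and 15.65 in DL. TH was lowest and TL highest, and TH lay 0.84 below the mean of the other groups. TH minus TL was -1.12 ± 0.04 (SE, adjusted p = 1.03e-05) and the interaction was -1.35 ± 0.06 (adjusted p = 2.51e-05), both past the threshold. The first was not called without TL replicate 1, without TL replicate 2 or under the 75th percentile scaling, where it was -0.36 (adjusted p = 0.00105). The interaction was called in 1 of the 8 fits that left out 1 array, the one without TH replicate 2, and was -0.74 under the 75th percentile scaling (adjusted p = 0.000258). TL minus DH, within a slide, was 0.32 (adjusted p = 0.00149), was not called, and became -0.52 under the 75th percentile scaling. TL minus DL likewise turned from 0.54 to -0.15 under that scaling, so TL was then not the highest group.

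The other FOXO3 probes came from the ranked tables. A_72_P186876 read 5.90 and 5.98 in TH, 9.84 and 9.78 in TL, 7.29 and 7.26 in DH, and 6.88 and 6.79 in DL. It had the group order of the regulator-list probe (TL, DH, DL and TH, r = 0.90) with a larger range, 3.87 against 1.12. Outside TL its values lay below the array median of 7.40. TH minus TL was -3.87 and ran from -4.01 to -2.00 over the 4 other backgrounds or scalings. A_72_P071331 read 10.14 and 10.15 in TH, 10.52 and 10.49 in TL, 10.84 and 10.84 in DH, and 10.85 and 10.88 in DL, so that both Duroc groups lay above both Tibetan groups. TH was lowest for all 3 FOXO3 probes.

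PPP2R5A encodes a B56 regulatory subunit of the phosphatase PP2A, which removes phosphates from AKT and other kinases. The RefSeq probe A_72_P077706 read 12.93 and 12.90 in TH, 12.81 and 12.77 in TL, 13.19 and 13.19 in DH, and 13.16 and 13.22 in DL. Both Tibetan groups were below both Duroc groups, and DH and DL overlapped. The breed effect was -0.34 ± 0.02 (SE, adjusted p = 9.25e-05), a level 1.26 times higher in Duroc pigs, and it was not called when any 1 of the 8 arrays was left out (adjusted p up to 0.000816).

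Of the PPP2R5A probes from the ranked tables, A_72_P162086 read 9.21 and 9.22 in TH, 12.45 and 12.42 in TL, 9.17 and 9.23 in DH, and 9.14 and 9.27 in DL. TH, DH and DL overlapped, and TL was 9.40 times their mean. A_72_P431384 read 9.16 and 9.19 in TH, 11.39 and 11.39 in TL, 9.58 and 9.50 in DH, and 9.28 and 9.28 in DL, and TL was 4.17 times the mean of the others. These 2 probes correlated at r = 0.99 with each other and at -0.76 and -0.69 with the RefSeq probe, for which TL was the lowest group.

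CCND3 encodes cyclin D3, the partner of CDK4 and CDK6 that is prominent in lymphoid cells. The RefSeq probe A_72_P234497 read 12.09 and 12.11 in TH, 10.43 and 10.34 in TL, 12.05 and 12.08 in DH, and 11.43 and 11.43 in DL. Both highland groups were above both lowland groups, and TL was lowest. The altitude effect was 1.17 ± 0.03 (SE, adjusted p = 4.59e-06) and TL minus DH was -1.68 ± 0.04 (adjusted p = 2.40e-06), a level 3.20 times higher in DH. These 2 differences were called without each of the 8 arrays in turn.

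At -0.50 the breed effect of the same CCND3 probe was called (adjusted p = 4.21e-05), as was its interaction, 1.08 (adjusted p = 3.26e-05). Neither was called when any 1 array was left out. TH and DH, the neighbors at the top of the order, differed by 0.03 ± 0.04 (adjusted p = 0.486), and DH minus DL was 0.64 (adjusted p = 0.000129).

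The CCND3 probe from the regulator list, A_72_P228592, read 16.86 and 16.73 in TH, 16.06 and 16.05 in TL, 16.76 and 16.83 in DH, and 16.40 and 16.47 in DL. TH and DH overlapped and TL was again lowest, with r = 0.98 to the RefSeq probe. Its altitude effect of 0.55 ± 0.04 (adjusted p = 0.000145) and its TL minus DH of -0.74 ± 0.06 (adjusted p = 0.000147) missed the threshold. Under the 75th percentile scaling both passed it, at 1.01 (adjusted p = 8.60e-06) and -1.57 (adjusted p = 3.98e-06).

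CCND3 probe A_72_P205202 came from the ranked tables and read 9.56 and 9.51 in TH, 11.70 and 11.79 in TL, 9.38 and 9.45 in DH, and 8.11 and 8.24 in DL. TL was highest here, at 11.9 times DL, and r was -0.68 to the RefSeq probe and -0.59 to the probe of the regulator list. A mean over the 3 CCND3 probes thus had a breed effect of 0.38, the reverse of the RefSeq probe.

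MDM2 encodes a ubiquitin ligase that bears on cell cycle arrest. Its RefSeq probe A_72_P303004 read 10.50 and 10.48 in TH, 9.49 and 9.52 in TL, 9.84 and 9.84 in DH, and 9.64 and 9.65 in DL. TH stood above all other groups, by 0.83 over their mean, and the order was TH, DH, DL and TL without overlap. TH minus TL was 0.99 ± 0.02 (SE, adjusted p = 2.15e-06), a level 1.99 times higher in TH, and was called without each array in turn. TH minus DL, within a slide, was 0.84 ± 0.02 (adjusted p = 1.31e-05), and TH minus DH was 0.65 (adjusted p = 3.10e-05), and neither was called when any 1 array was left out.

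At the low end of the MDM2 order, TL minus DL was -0.15 (adjusted p = 0.00247), was not called, and turned to 0.15 under the 75th percentile scaling. The breed effect was 0.25 (adjusted p = 8.69e-05), the altitude effect 0.59 (adjusted p = 6.69e-06) and the interaction 0.80 (adjusted p = 1.70e-05). All 3 passed the threshold. Over the fits that left out 1 array they ran, in that order, from 0.246 to 0.260, 0.583 to 0.597 and 0.785 to 0.813. The calls were lost in those fits, which have fewer degrees of freedom.

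The breed effect, a mean over both altitudes, was called for 3 of the 6 tested probes, against 27.4% of all tested probes. It was negative for PPP2R5A and CCND3 A_72_P234497 and positive for MDM2. For CCND3 A_72_P234497, TH minus DH was 0.03 and TL minus DL was -1.04, so only TL was lower than the Duroc group at its altitude. For MDM2, TH minus DH was 0.65 and TL minus DL was -0.15, which was not called. When any 1 of the 8 arrays was left out, limma called 0 of the 6 breed effects, while 5 of the 6 had an unadjusted p below 0.05. The altitude effect was called for 2 of 6 probes, CCND3 A_72_P234497 and MDM2, both higher in the highland groups, against 26.3% of all tested probes. The interaction was called for 3 of 6, positive for CCND3 A_72_P234497 and MDM2 and negative for FOXO3 A_72_P375183, against 28.4%. Without any 1 array the interaction was called for 0 or 1 of the 6 and the altitude effect for 1. With 6 probes, these counts are no result about the 9 genes as a group.

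Within the second slide, TL minus DH was called for 2 of 6 probes, CCND3 A_72_P234497 and MDM2, both lower in TL, against 33.9% of all tested probes. Within the first slide, TH minus DL was called for the same 2 probes, both higher in TH, against 14.1%. Leaving out any 1 array left 1 call in TL minus DH, that of CCND3, and 0 in TH minus DL, where all 6 probes then had an unadjusted p below 0.05. Tibetan minus Duroc thus had opposite signs on the 2 slides for CCND3 A_72_P234497, 0.67 and -1.68, and for MDM2, 0.84 and -0.34. Under the 75th percentile scaling TL minus DH of MDM2 shrank to -0.12 and was not called by limma (adjusted p = 0.00583). TH minus TL was called for 3 of 6 (37.1% of all tested probes), TL minus DL for 1 of 6, CCND3 A_72_P234497, though not without DL replicate 1 or DL replicate 2 (37.5%), and TH minus DH for 1 of 6 (9.33%). DH minus DL was called by limma for 0 of 6 (9.95%), although 5 of the 6 had an unadjusted p below 0.05 and 5 were called at an FDR below 0.01.

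**Figure D2:**
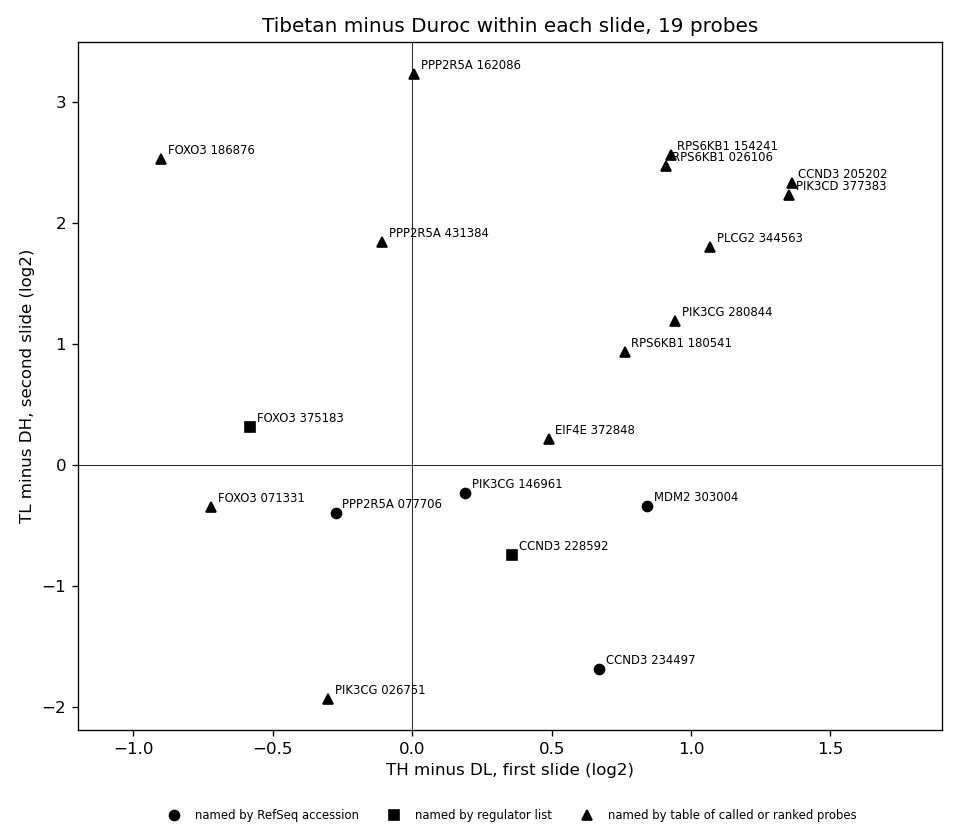
Tibetan minus Duroc difference (log2) of each of the 19 probes within the first slide, TH minus DL (x axis), and within the second slide, TL minus DH (y axis), with 1 point per probe and its shape showing how the probe was named. MDM2 and CCND3 P234497 lie at the lower right (0.84 and -0.34, 0.67 and -1.68), and RPS6KB1, PIK3CD, PLCG2 and CCND3 P205202 lie at the upper right.

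TL was the group that lay farthest from the other 3 for 14 of the 19 probes, above them for 10 and below them for 4, and for 13, 8 above and 5 below, under the 75th percentile scaling. TH was farthest for 4 probes (MDM2, EIF4E, FOXO3 A_72_P375183 and FOXO3 A_72_P071331), DH for 1 (the RefSeq probe of PIK3CG) and DL for 0. Under the 75th percentile scaling DL was farthest for 2 probes, RPS6KB1 A_72_P180541 and PIK3CG A_72_P280844, FOXO3 A_72_P375183 moved from TH to DH, and the RefSeq probe of PIK3CG moved from DH to TL. That last probe had DL farthest without TH replicate 1. The share of all tested probes with TL farthest was 52.6%, made up of 22.9% above and 29.7% below. The side differed between the classes of probes. Among the 13 probes from the ranked tables TL was farthest and above for 10 and below for 1, whereas among the 6 other probes it was farthest and above for 0 and below for 3. Of all tested RefSeq probes, 9.65% had TL farthest and above and 36.8% farthest and below, and 46.4% either. The ranked tables selected on these arrays, so this contrast between probe classes is a description.

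**Figure D3:**
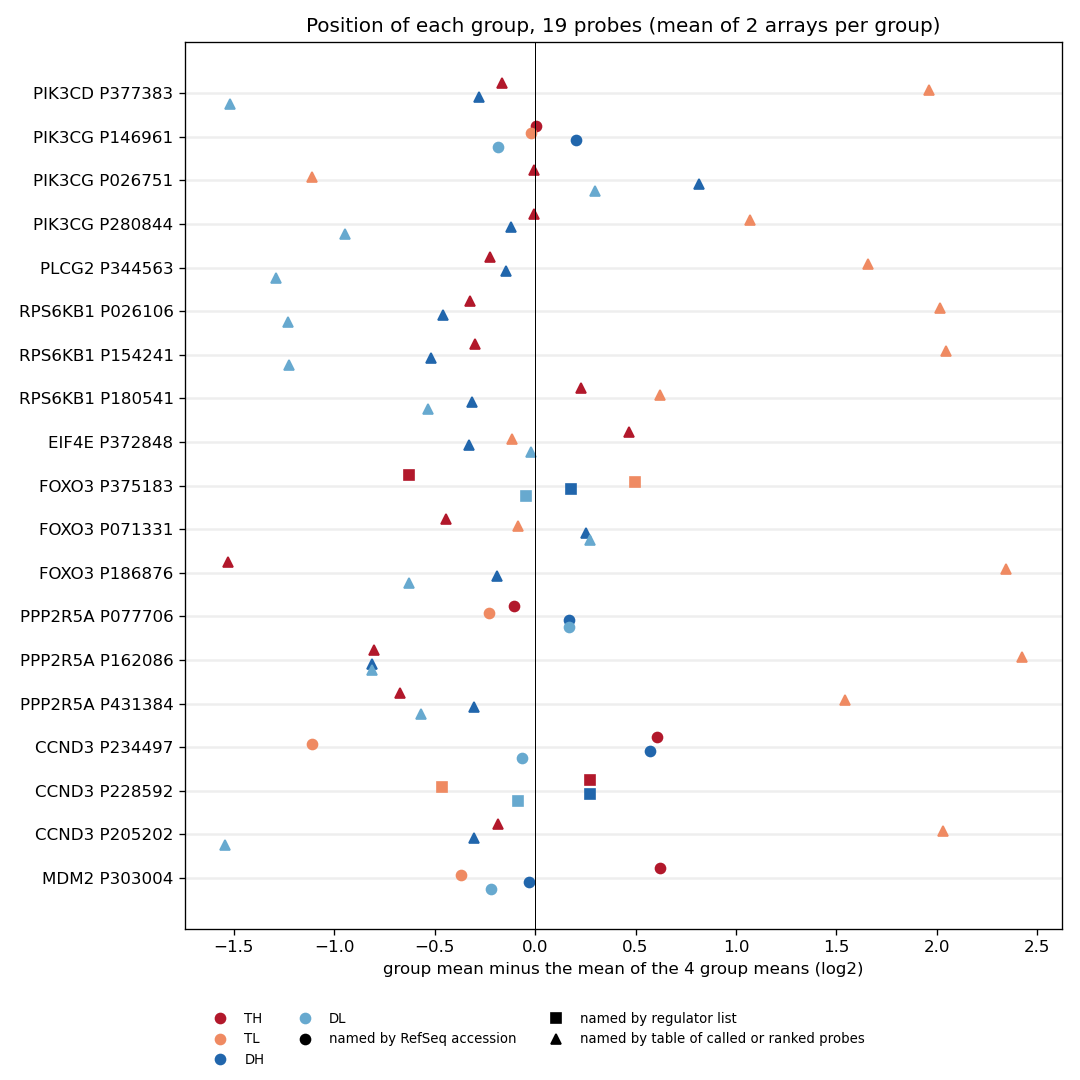
Mean of the 2 arrays of each group minus the mean of the 4 group means (x axis, log2) for the 19 probes (y axis). Color gives the group, offset vertically for legibility, and shape gives how the probe was named. TL (orange) is the group farthest out on the right for 10 probes, all triangles, and on the left for PIK3CG P026751, PPP2R5A P077706 and CCND3 P234497 and P228592.

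In 7 of the 13 probes from the ranked tables TL was highest and DL lowest. These were the probes of PIK3CD, PLCG2, all 3 of RPS6KB1, PIK3CG A_72_P280844 and CCND3 A_72_P205202. TH lay above TL for RPS6KB1 A_72_P180541 under the 75th percentile scaling. RPS6KB1 probes A_72_P026106 and A_72_P154241 share a target. The share of all tested probes with this order is not given here, so the count is a description only. The 4 groups did not overlap in 15 of the 19 probes, against 50.6% of all tested probes. Since 13 of the 19 were named from tables chosen on these arrays, that count is no result about these genes. Across the 13 probes TL minus DH ran from -1.93 to 3.23 with a median of 1.85, and across the 6 tested probes its median was -0.37, beside -0.09 over all tested probes and -0.29 over those with a RefSeq accession.

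The scaling of the arrays bore on several directions. Quantile normalization of the processed signals gave nearly the same estimates as the deposited values, whose exact steps are not given. Quantile normalization and scaling to the 75th percentile treat the brighter TL arrays differently. Of the 19 probes, TL minus DH kept its sign under all 4 alternative scalings for 17 and the interaction for 18. The breed effect kept its sign for all 19. The exceptions arose under the 75th percentile scaling, for EIF4E and FOXO3 A_72_P375183 in TL minus DH and for the RefSeq probe of PIK3CG in the interaction. That scaling moved the median interaction of all tested probes by 0.13 and their median TH minus TL by 0.13, and raised the share of altitude calls that were higher at high altitude from 53.4% to 64.8%.

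**Figure D4:**
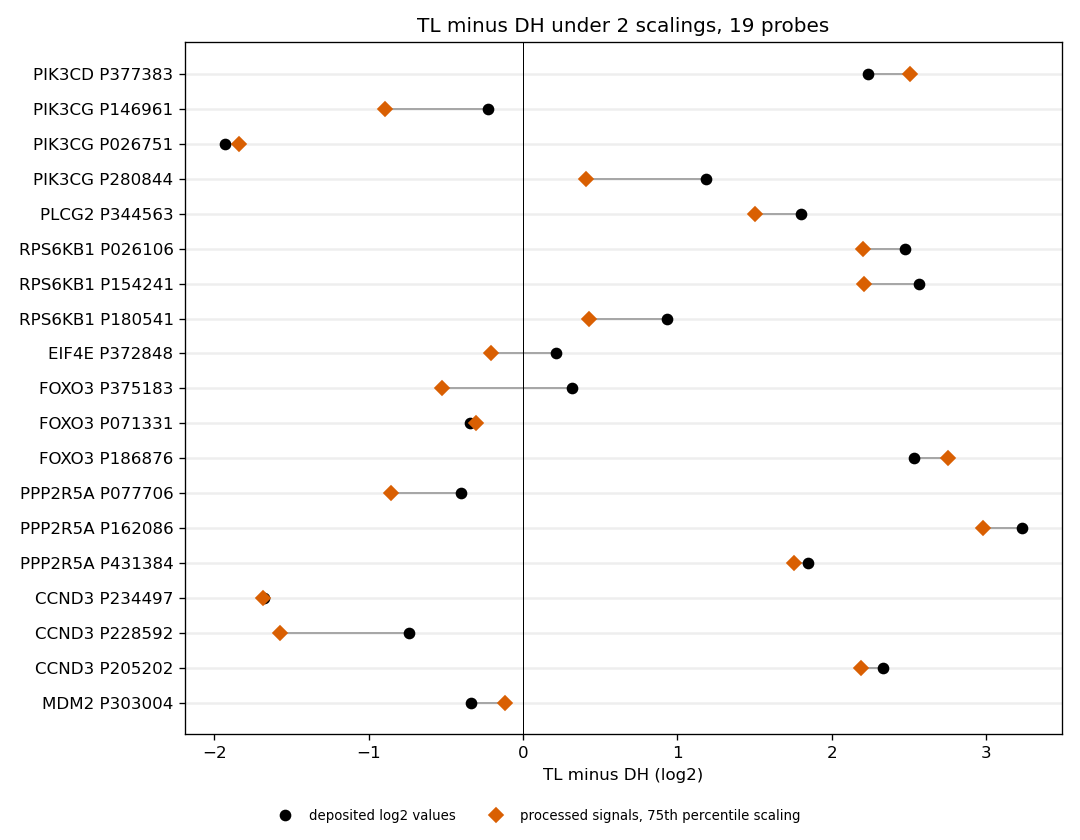
TL minus DH (x axis, log2) of the 19 probes (y axis) from the deposited values (black circles) and from processed signals set to each array's 75th percentile (orange diamonds), joined by a line. EIF4E and FOXO3 P375183 cross 0, and the CCND3 probe P234497 stays at -1.68.

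Of 67 other genes of the pathway and the cell cycle, 16 had a tested probe with a RefSeq accession, and each was taken at its brightest such probe. TL minus DH was called lower for 6 of the 16 and higher for 1, where 28.5% of all tested RefSeq probes were called lower and 9.78% higher. The estimates were below 0 for 11 and above 0 for 5. The largest decreases were those of PPP2R1A, the PP2A scaffold subunit, at -1.13 ± 0.03 (SE, adjusted p = 5.29e-06), and of SYK, the kinase that activates PLCG2 after antigen receptors, at -1.07 ± 0.03 (adjusted p = 6.35e-06). PPP2R2A, another PP2A regulatory subunit, was the 1 called higher, at 0.46 ± 0.03 (adjusted p = 4.10e-05) and turned to -0.31 under the 75th percentile scaling. Without TL replicate 1, and likewise without TL replicate 2, limma called 0 of the 16, with 14 or 15 at an unadjusted p below 0.05 in every fit that left out 1 array.

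The interaction was called positive for 6 of the 16 genes and negative for 1, against 21.8% and 5.96% of all tested RefSeq probes. Its estimates were above 0 for 13 and below 0 for 3. PIK3R5, the regulatory partner of p110 gamma, had an interaction of 1.55 ± 0.05 (adjusted p = 7.39e-06). EIF4A1, the helicase that works with EIF4E, was the 1 called negative, at -0.65 ± 0.04 (adjusted p = 8.79e-05), and at -0.06 under the 75th percentile scaling. Leaving out TL replicate 1 or TL replicate 2 left 0 of the 16 called, and leaving out each other array 0 or 1, with 14 or 15 at an unadjusted p below 0.05.

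The altitude effect was called higher at high altitude for 6 of the 16 genes and lower for 1, against 25.2% and 10.2% of all tested RefSeq probes. SYK rose by 1.05 ± 0.02 (adjusted p = 4.67e-06) and CCNB1, the mitotic cyclin, by 0.90 ± 0.02 (adjusted p = 5.52e-06). CDKN1B, an inhibitor of cyclin-dependent kinases that FOXO factors induce, was at -0.39 ± 0.02 (adjusted p = 2.48e-05), and at 0.02 under the 75th percentile scaling. Without TL replicate 1 or TL replicate 2, 0 of the 16 were called, with 12 or 13 at an unadjusted p below 0.05. The breed effect was called for 1 of the 16, PPP2R1A at -0.44 ± 0.02 (adjusted p = 5.03e-05), beside 19.6% of all tested RefSeq probes lower and 8.89% higher in Tibetan pigs, and for 0 when any 1 array was left out, with 11 to 13 at an unadjusted p below 0.05. The median TL minus DH of the 16 genes was -0.39, with -0.29 over all tested RefSeq probes.

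**Figure D5:**
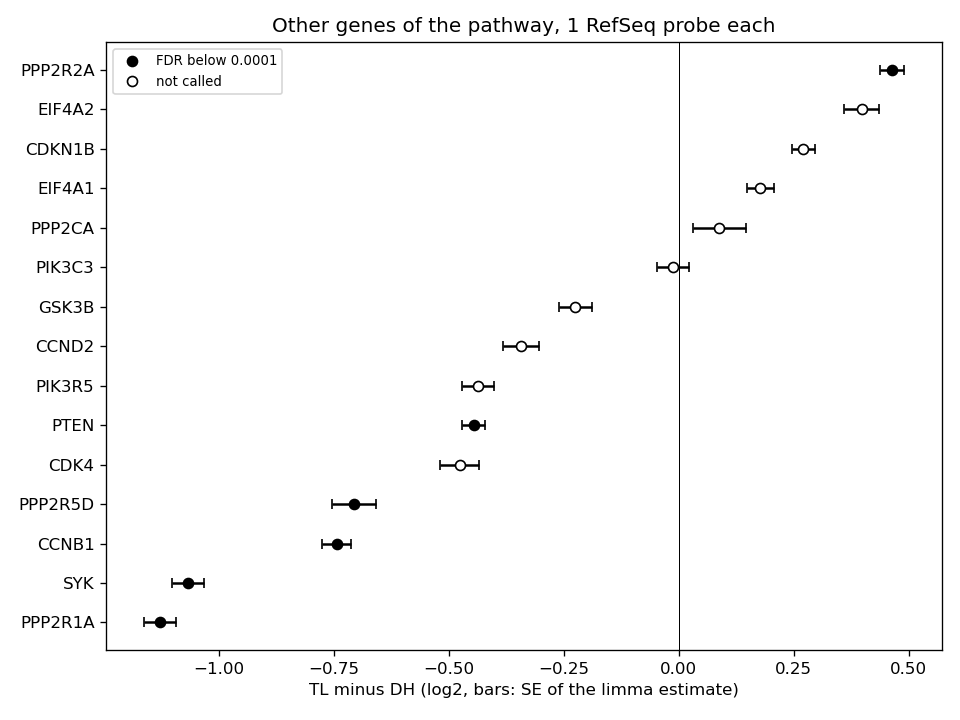
TL minus DH (x axis, log2) of 15 of the 16 other genes of the pathway, 1 RefSeq probe each, with the SE of the limma estimate as bars. Filled points passed an FDR below 0.0001. PPP2R1A (-1.13) and SYK (-1.07) lie lowest and PPP2R2A (0.46) highest, the last turning to -0.31 under the 75th percentile scaling.

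Markers of leukocytes moved between the groups too, and their part in the values of PIK3CD, PIK3CG, PLCG2 and CCND3 was not tested. All 6 T cell markers were measured. TL minus DH was below 0 for all 6 and called lower for 4, where 28.5% of all tested RefSeq probes were called lower. TL was the lowest group for CD3E (mean 10.61, against 11.66 to 12.64 for the others), CD3D (7.54, against 8.09 to 9.08) and CD2 (9.52, against 9.83 to 10.96). The other T cell markers did not set TL apart. CD3G was at 12.84 in TL and 12.86 in DL. CD4 was lowest in TH (8.09, with TL at 8.12) and CD8A was lowest in DL (12.78, with TL at 13.35). The summed T cell level, which the brightest probes set, was 14.9 to 15.0 log2 units for TH, 14.3 for TL, 14.8 for DH and 14.2 for DL. B cell markers were measured for 2 of 4 genes, and they summed to 13.0 on both TH arrays, 9.32 and 9.48 for TL, 10.3 for DH and 10.4 for DL. The 2 measured general leukocyte markers of 8 summed to 16.3 for TH, 16.4 to 16.5 for TL, 16.8 for DH and 16.7 to 16.8 for DL. That sum was set by ITGB2, the brighter of the pair. SPI1, a transcription factor of myeloid and B cells, had means of 9.64 for TH, 8.62 for TL, 9.82 for DH and 9.76 for DL, with TL lowest.

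Lung identity was checked by the surfactant genes, markers of alveolar type II cells. All 4 were well above background on all 8 arrays, and their summed level was 18.8 to 18.9 for TH, 19.0 for TL, 19.2 to 19.3 for DH and 19.1 for DL. The 2 macrophage markers measured of 5 summed to 16.9 for TH, 17.1 for TL, 17.4 for DH and 16.9 to 17.0 for DL. Endothelial markers (2 of 3) summed to 16.6 for TH, 17.1 for TL, 17.0 to 17.1 for DH and 17.3 for DL, and both alveolar type I markers to 12.5 for TH, 12.8 for TL, 12.9 for DH and 13.0 for DL. The airway and erythroid lists had 0 genes with a RefSeq probe.

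Among 1765 genes with a RefSeq probe (1764 where the gene itself is among them), the courses most like those of the brightest probe of each gene over the 8 arrays were these. PSMA6 (r = 0.997) and CASP10 (r = 0.995) were nearest to PIK3CD, and the same PSMA6 and CASP10 (both r = 0.993) to PLCG2. For PIK3CG they were DDX39B (r = 0.998) and CASP10 (r = 0.991), and for RPS6KB1 AMY2 (r = 0.997) and SAT1 (r = 0.996). The PIK3CG probe used was A_72_P280844 from the ranked tables. It had r = 0.32 to the RefSeq probe and -0.77 to A_72_P026751, so this likeness describes that probe only. The probes used for RPS6KB1, FOXO3, PPP2R5A and CCND3 were A_72_P180541, A_72_P375183, A_72_P077706 and A_72_P228592. EIF4E ran with YIPF5 (r = 0.998) and TPBG (r = 0.997), and FOXO3 with ACSL4 (r = 0.997). PPP2R5A was nearest to PDZD11 (r = 0.994) and C7H6orf52 (r = 0.988), CCND3 to HAS3 (r = 0.996) and SH2D1A (r = 0.992), and MDM2 to SFRP4 (r = 0.998) and GPX4 (r = 0.998). With 8 arrays in 4 groups, between 18 and 132 genes exceeded r = 0.95 for each of these probes.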

How the data were processed

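Total RNA of lung was amplified, labeled with 1 dye and hybridized to 8 porcine Agilent arrays with 43603 non-control probes, 2 per group. Spot intensity was extracted by the authors with Agilent Feature Extraction, version 9.1 per the labels and 10.7.3.1 per the file headers. The scanner files, as deposited, hold median, background and processed intensity, and a flag for spots well above background. The authors also deposited log2 values, made per their methods by RMA, and these are the main values here. Their Spearman's rho with the processed intensity was at least 0.999987 on each array, and their exact steps are not given in the sources used here. 0 spots were saturated. The number of arrays limits the precision.

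The 34406 probes well above background on at least 1 array were tested with limma 3.58.1 in R 4.3.3 on group means, with moderated variances and Benjamini-Hochberg adjustment over these probes. The threshold was an FDR below 0.0001, as in the study's methods. Summaries used Python 3.11.15, pandas 2.3.3 and numpy 2.4.6, and figures matplotlib 3.10.9. In simulated data with 200 of 34406 probes changed by 2 log2 units in TL minus DH, 89 were recovered with 0 false calls. The simulation had independent normal noise and no slide effect. It changed a far smaller share of probes than the 33.9% called for TL minus DH here, which makes the adjustment stricter. Neither its recovery nor its false calls carry over to these data.

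Symbols came from the study's supplementary tables, used in part (3655 probes), or from 3250 probes with a RefSeq accession, of which 2683 matched a RefSeq gene. The study had mapped accessions to genes, and no probe sequence was used to check them. The genes, lists and tests were chosen with earlier results of these data known. All probes of the 9 genes are named. Of 67 other pathway genes, those with a RefSeq probe are counted, and the 2 called with the largest effect each way are named. The 2 genes most like each member by Pearson's r are named, as are lists of cell type markers. For 2 of the genes that these rules name, results are not reported here. Alternatives were 4 other backgrounds or scalings of the scanner intensity, 3 other filters, thresholds of 0.01 and 0.05 on the FDR, no moderation of the variances, limma's trend option, blocks for slide or for replicate number, and fits without each array. A group left with 1 array was assumed to vary like the others. Such a fit has fewer degrees of freedom, so it can lose a call while the estimate hardly moves.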

Additional observations from a re-analysis of the deposited data

Results flagged for a closer look

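The altitude difference of Tibetan pigs (TH minus TL) set against that of Duroc pigs (DH minus DL) equals the contrast between slides in every probe. It also equals the contrast of native and moved pigs, and these cannot be told apart. For 3 of the 6 tested probes it passed the limma test of the interaction, as 28.4% of all tested probes did, FOXO3 A_72_P375183 at -1.35, CCND3 A_72_P234497 at 1.08 and MDM2 A_72_P303004 at 0.80.

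For 10 of the 13 other probes the arrays of TH and TL moved one way and those of DH and DL the opposite way without overlap, and the difference was not tested since these probes were named from tables chosen on such results. The same pattern was met by 41.0% of all tested probes, and the count is no result about these genes. The difference was -3.36 for PIK3CD A_72_P377383, -1.90 for PIK3CG A_72_P280844 and -3.03 for PLCG2 A_72_P344563. RPS6KB1 had -3.11 at A_72_P026106, -3.05 at A_72_P154241 and -0.61 at A_72_P180541. At A_72_P180541 both breeds moved the same way under the 75th percentile scaling, with TH minus TL of 0.15, DH minus DL of 0.22 and a difference of -0.07. EIF4E A_72_P372848 was the only positive one among these 10, at 0.89. FOXO3 A_72_P186876 had -4.31, and -2.16 with local background and an offset of 50, where PIK3CD had -1.78. PPP2R5A A_72_P431384 had -2.48 and CCND3 A_72_P205202 had -3.45. For CCND3 the untested probe and the RefSeq probe thus had opposite signs.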

How the results depend on the processing

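Of the 6 tested probes, limma on the deposited values called 3 for breed, 2 for altitude, 3 for the interaction, 2 for TL minus DH, 2 for TH minus DL, 3 for TH minus TL, 1 for TH minus DH, 1 for TL minus DL and 0 for DH minus DL. Quantile normalization of the processed signals and the slide as a block moved none of these counts beyond 1.5 times, and the slide block gave no value for the interaction or for pairs across slides. Scaling to the 75th percentile called 5 for breed, 4 for altitude, 4 for TL minus DH, 5 for TH minus TL, 2 for TH minus DH, 3 for TL minus DL and 1 for DH minus DL. The normal-exponential correction of raw signals called 1 for breed, 0 for TH minus DL and 0 for TH minus DH, and with local background and an offset of 50 it called 1 for breed, 4 for altitude and 1 for DH minus DL. No filter left 1 for breed, 1 for TL minus DH and 1 for TH minus DL. Probes above background on both arrays of a group gave 4 for altitude, 2 for TH minus DH, 2 for TL minus DL and 1 for DH minus DL. Probes above background on all arrays gave 4 for altitude, 4 for TL minus DH, 2 for TH minus DH, 3 for TL minus DL and 1 for DH minus DL. Without moderation 1 was called for breed, 1 for the interaction and 1 for TH minus DL. The intensity trend gave 4 for altitude, 4 for TL minus DH, 4 for TH minus DL, 2 for TH minus DH, 3 for TL minus DL and 2 for DH minus DL. An FDR below 0.01 gave 5 for altitude, 5 for the interaction, 6 for TL minus DH, 5 for TH minus DL, 3 for TH minus DH, 5 for TL minus DL and 5 for DH minus DL. An FDR below 0.05 gave 5 for breed, 5 for altitude, 6 for the interaction, 6 for TL minus DH, 6 for TH minus DL, 5 for TH minus TL, 4 for TH minus DH, 6 for TL minus DL and 5 for DH minus DL. The cause of these moves was not tested beyond the construction of each alternative.

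Replicate numbers did not pair the arrays, since deviations from the group means correlated at -0.04 to 0.09 between equal numbers. With the replicate number as a block, 0 were called for breed, 0 for the interaction, 1 for TL minus DH, 0 for TH minus DL and 0 for TH minus DH, with fewer degrees of freedom. Leaving out 1 array at a time gave 0 for breed, 1 for altitude, 0 to 1 for the interaction, 1 for TL minus DH, 0 for TH minus DL, 2 to 3 for TH minus TL, 0 for TH minus DH, 0 to 1 for TL minus DL and 0 for DH minus DL.

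TL was farthest for 13 or 14 of the 19 probes under every scaling and filter and without each array. Signs turned under the 75th percentile scaling for PIK3CG A_72_P146961 in the interaction (0.21), for FOXO3 A_72_P375183 in altitude (0.0090) and TL minus DH (-0.52), and for EIF4E in TL minus DH (-0.21). TL minus DL turned for PIK3CG A_72_P146961 (-0.44), FOXO3 A_72_P375183 (-0.15) and MDM2 (0.15). Altitude turned for PIK3CG A_72_P280844 (0.29) and RPS6KB1 A_72_P180541 (0.19), and TH minus TL for RPS6KB1 A_72_P180541 (0.15). DH minus DL of PPP2R5A A_72_P162086, near 0 on the deposited values, became 0.10. The near-zero breed effect of PIK3CG A_72_P146961 ranged from -0.047 to 0.0082 over the fits that left out 1 array, the last without TH replicate 1. The choice of probe turned others. The brightest PIK3CG probe had a breed effect of 1.07, the mean of all PPP2R5A probes had 0.72 for breed and -1.86 for the interaction, and the mean of all CCND3 probes had 0.38 for breed and -0.67 for the interaction.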
